A study of Homo sapiens with 6 samples.

Results

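The genes described here are 35 that encode chaperones of the endoplasmic reticulum (ER), the sensors and transcription factors of the unfolded protein response, and the targets of the factor ATF4. They were chosen by name as rows of a table of 28058 genes, and all 35 were found there. They were sorted into an ATF6 arm (12 genes), an XBP1 arm (12 genes) and an ATF4 arm (11 genes) by the factor best known to drive each one, although several answer to more than 1 factor. The table gives gene expression in MDA-MB-231, an established human line from a triple-negative breast adenocarcinoma. The cells were grown in culture, and expressed either a control short hairpin RNA (shCTL, 3 libraries) or an shRNA directed against HSF1 (shHSF1, 3 libraries), the transcription factor of the heat shock response. The column names of the table add TGL after the name of the line and cl before each replicate number, and spell out neither, so whether the cells are a derivative of the line and whether the numbers are clones is not known. The labels give no hairpin sequence and do not say whether replicates were separate cultures, so the p-values reflect how much these libraries vary, and that variation may be technical.

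The unfolded protein response links protein folding in the ER to gene expression through sensors in the ER membrane. ATF6 is cut in the Golgi and frees a transcription factor that raises chaperones, IRE1 (gene ERN1) splices the XBP1 messenger RNA so that it encodes an active factor for folding and degradation genes, and PERK (gene EIF2AK3) phosphorylates the initiation factor eIF2, which slows translation while favouring that of ATF4. HSF1 drives the parallel response of the cytosol, and cancer cells are known to rely on both. Splicing of XBP1, cutting of ATF6 and translation of ATF4 are not seen in a table of levels per gene.

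HSF1 itself was at 61.2, 53.3 and 47.9 RPKM (reads scaled to gene length and library size) in shCTL libraries 1 to 3, and at 5.01, 4.70 and 3.84 RPKM in shHSF1 libraries 1 to 3. Every shHSF1 library lay below every shCTL library, which goes with the labels (exact two-sided permutation p = 0.1, the smallest that 3 libraries against 3 allow). The reads assigned to genes ranged from 33988307 to 70449758 per library. Of the markers of the line, VIM, CD44, FOSL1, AXL and CAV1 lay between 92.1 and 2209 RPKM in all libraries, and the epithelial keratins KRT8 and KRT18 had means from 110 to 282 RPKM, while CDH1, the epithelial cadherin, was at 0.0230 and 0.0280 RPKM in shCTL and shHSF1. The luminal receptors ESR1 and PGR were at no more than 0.114 RPKM in either group mean. Defining markers of blood cells (PTPRC and CD3E), endothelium (CDH5) and fibroblasts (LUM and DCN) had group means between 0 and 0.0311 RPKM.

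The letters of the promoters show which genes carry the elements these factors bind. RefSeq (GRCh38.p14) lists promoters for 32 of the 35 genes, as 43 windows of 300 bases (250 before each start and 50 after it), and no window was listed for DERL1, DERL3 and NUPR1. The windows were searched on both strands for the ER stress response element ERSE (CCAAT and CCACG with any 9 bases between them), bound by NF-Y with ATF6, for its second type ERSE-II (ATTGG and CCACG with any 1 base between them), for the XBP1 element UPRE (TGACGTGG), for the ATF4 element CARE (TGATG, any base, AA and any base) and for the heat shock element (GAA, TTC and GAA with any 2 bases between neighbours). ERSE was found in HSPA5, HSP90B1, PDIA6, CRELD2 and XBP1 and in 0.0769% of all 35116 promoter windows, and ERSE-II in HYOU1, SDF2L1 and HERPUD1 and in 0.0541% of all windows. CARE was found in HERPUD1, CHAC1 and ATF3 (3.61% of all windows), UPRE in HYOU1, where it overlaps an ERSE-II (0.729%), and the heat shock element in none of the 43 windows (0.49%). A match describes these letters only, and a missing match says nothing about the factor elsewhere.

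HSPA5 and HERPUD1 are shown over all 250 bases before the start because they had the lowest log2 fold changes among the genes with an element, with ERSE in capitals in HSPA5, and CARE and then ERSE-II in capitals in HERPUD1. They lie at chr9:125241344-125241593, minus strand, and chr16:56931892-56932141, plus strand.
HSPA5: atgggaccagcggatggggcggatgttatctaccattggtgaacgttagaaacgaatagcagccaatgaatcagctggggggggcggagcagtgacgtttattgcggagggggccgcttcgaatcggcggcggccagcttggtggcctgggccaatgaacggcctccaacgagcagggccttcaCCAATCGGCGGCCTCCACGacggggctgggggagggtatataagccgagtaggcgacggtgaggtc
HERPUD1: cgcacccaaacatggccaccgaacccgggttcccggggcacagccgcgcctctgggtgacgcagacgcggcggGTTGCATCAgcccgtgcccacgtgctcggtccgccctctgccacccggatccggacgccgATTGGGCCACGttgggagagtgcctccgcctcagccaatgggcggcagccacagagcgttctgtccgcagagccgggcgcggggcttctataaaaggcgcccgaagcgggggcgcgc

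The other genes with an element are shown with 10 bases on either side of it, to set the same letters beside genes that did not pass the test. The element is in capitals, read on the strand of the gene, so that an element on the opposite strand appears as its reverse complement (CGTGG before ATTGG in ERSE, CGTGG before CCAAT in ERSE-II, and CATCA at the end of CARE).
HSP90B1, ERSE at chr12:103930206-103930244: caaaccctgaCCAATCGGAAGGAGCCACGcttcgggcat
HSP90B1, ERSE at chr12:103930311-103930349: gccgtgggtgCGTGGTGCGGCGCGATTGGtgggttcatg
PDIA6, ERSE at chr2:10812843-10812881: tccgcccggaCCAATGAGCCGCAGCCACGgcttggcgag
CRELD2, ERSE at chr22:49918544-49918582: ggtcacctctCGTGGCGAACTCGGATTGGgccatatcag
XBP1, ERSE at chr22:28800593-28800631: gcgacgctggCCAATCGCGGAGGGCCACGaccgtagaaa
HYOU1, ERSE-II at chr11:119057370-119057400: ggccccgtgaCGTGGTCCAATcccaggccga
HYOU1, ERSE-II at chr11:119057264-119057294: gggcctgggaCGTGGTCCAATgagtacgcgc
SDF2L1, ERSE-II at chr22:21642104-21642134: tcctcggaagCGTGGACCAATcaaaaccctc
CHAC1, CARE at chr15:40953251-40953279: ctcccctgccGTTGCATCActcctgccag
ATF3, CARE at chr1:212565206-212565234: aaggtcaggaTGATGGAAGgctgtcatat

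Few of the genes differed between the groups. In bulk RNA, fewer cells that express a gene and less of its RNA per cell cannot be told apart. Of the 34 genes expressed well enough to be tested (at least 0.5 RPKM in at least 3 libraries), 2 rose in shHSF1, DNAJC3 and EIF2AK3, and 3 fell, NUPR1, HSPA5 and ATF4, at a limma adjusted p under 0.05. That is 14.7% of them, where the same test called 33.8% of the 12433 genes tested in all (17.7% higher and 16.1% lower). The median log2 fold change was 0.03 over the 34 genes and 0.04 over all tested genes, on the log2(RPKM + 0.5) scale, which understates changes of low genes. The RPKM of the groups did not overlap for 8 of the 34 (23.5%, against 47.4% of all tested genes), namely those 5 and ATF6, PDIA6 and OS9. For 19 of the 34 the 95% interval of the log2 fold change lay within 0.5 of 0. The exception to testing was DERL3, a derlin listed at 0 in all libraries. If all its reads were counted, a count of 0 allows up to 0.00665 to 0.0138 RPKM of it per library, as counting error only. Its exons are listed again on an alternate contig, so reads that fit both places may not have been counted. SMARCB1, which shares 16 exonic bases with it, was also at a mean of 0 RPKM in both groups. The bound may therefore not apply, and why both genes were at 0 was not tested.

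Libraries with the same replicate number deviated together from their group means, so the number was treated as a pairing, and a fit that blocks on that number called 11 of the 34 genes (32.4%, against 48.3% of all tested genes, 26.2% higher and 22.1% lower). These were 5 higher, with ATF6, PDIA6 and ATF3 added, and 6 lower, with HERPUD1, DNAJB9 and MANF added. Each of the 11 had the same direction in all 3 pairs, as shown in the plot of differences within pairs. The block tests these same differences, so this agreement follows largely from how the 11 were picked. Over all 34 genes, 7 were lower in shHSF1 in every pair and 10 were higher in every pair, where 31.2% and 38.7% of all tested genes were.

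**Figure D1:**
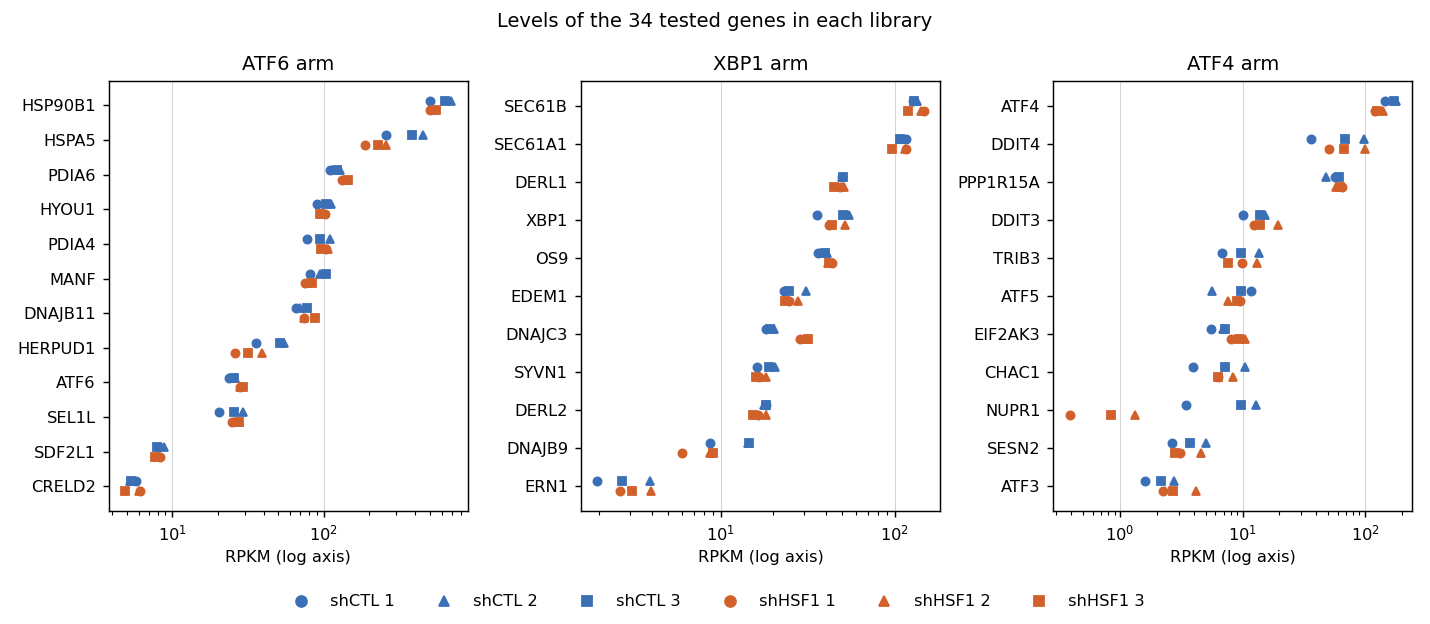
Level of each of the 34 tested genes in RPKM (log axis) in each of the 6 libraries, by arm; blue marks are shCTL, orange marks shHSF1, and circles, triangles and squares are replicates 1, 2 and 3. NUPR1 is the gene whose groups lie farthest apart, at 3.46 to 12.9 RPKM in shCTL and 0.386 to 1.33 RPKM in shHSF1, and the marks of most other genes overlap.

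In the ATF6 arm the chaperone BiP was lower, and the other large chaperones, HSP90B1 and HYOU1, were not called with all 6 libraries. HSPA5, which encodes BiP, the HSP70 chaperone of the ER that also holds the sensors inactive (chr9:125234848-125241387, minus strand, 8 exonic blocks), was at 258, 454 and 380 RPKM in shCTL libraries 1 to 3. In shHSF1 libraries 1 to 3 it was at 187, 257 and 228 RPKM. The groups come close without overlapping, since the highest shHSF1 library lay just under the lowest shCTL library. The means were 364 ± 99.1 and 224 ± 35.3 RPKM (SD, n = 3), a 1.62-fold fall with a log2 fold change of -0.67 (SE 0.208, limma adjusted p = 0.0399). This call was lost when any library but shCTL 1 was left out (limma adjusted p of 0.113 without shCTL 2, 0.113 without shCTL 3, 0.119 without shHSF1 1, 0.0503 without shHSF1 2 and 0.0636 without shHSF1 3). The 3 pairs differed by -0.46, -0.82 and -0.74 on the log2 scale, and when blocking on the replicate number the limma adjusted p was 0.000726.

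HERPUD1 encodes a membrane protein of ER-associated degradation, the pathway that exports misfolded proteins to the proteasome (chr16:56932090-56943881, plus strand). It was at 35.9, 54.3 and 51.2 RPKM in shCTL libraries 1 to 3 and at 26.0, 39.2 and 31.6 RPKM in shHSF1 libraries 1 to 3. The groups overlapped, because shHSF1 2 lay above shCTL 1, while within each pair the shHSF1 library was the lower. Its log2 fold change was -0.54 (limma adjusted p = 0.0623), and blocking on the replicate number it was called lower (adjusted p = 0.00093). It was also called lower with voom on recovered reads (0.0472), with median scaling (0.0419) and without shCTL 1 (0.0154) or shHSF1 2 (0.0394).

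MANF, a secreted protein that protects stressed cells, had means of 93.0 ± 11.3 RPKM in the shCTL libraries and 78.7 ± 4.40 RPKM in the shHSF1 libraries (SD, n = 3), with overlapping groups and a log2 fold change of -0.23. Its limma adjusted p was 0.112, 0.0179 when blocking on replicate number and 0.0278 without shCTL 1. HSP90B1, which encodes the HSP90 paralog GRP94, had the highest level of all 35 genes. It was at 502, 696 and 628 RPKM in shCTL libraries 1 to 3 and at 499, 523 and 551 RPKM in shHSF1 libraries 1 to 3, with overlapping groups. Its log2 fold change of -0.20 did not pass the test (95% interval -0.49 to 0.09, limma adjusted p = 0.255, and 0.0823 with the block). Without shCTL 1 it was -0.34 and called lower (limma adjusted p = 0.0397).

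Other folding factors of the arm lay slightly higher or close to even. PDIA6, a protein disulfide isomerase, was at 110, 127 and 123 RPKM in shCTL libraries 1 to 3 and at 132, 142 and 144 RPKM in shHSF1 libraries 1 to 3. No shHSF1 library of it lay below a shCTL library, and its log2 fold change was 0.21 (limma adjusted p = 0.0752). Blocking on the replicate number it was called higher (limma adjusted p = 0.0137). Centred on 40 genes, 20 genes and genes within 10 Mb, PDIA6 had 0.13, 0.11 and 0.14 (limma adjusted p of 0.284, 0.368 and 0.240). The sensor ATF6 itself had means of 25.1 ± 1.22 RPKM in the shCTL libraries and 28.3 ± 0.706 RPKM in the shHSF1 libraries (SD, n = 3). The 3 shHSF1 libraries of it all lay above the 3 shCTL libraries, with a log2 fold change of 0.17 (limma adjusted p = 0.0963, and 0.0441 with the block). Centred on neighbouring genes, ATF6 was called with 40 genes (0.32, limma adjusted p = 0.0119) and not with all genes within 10 Mb (0.16, adjusted p = 0.127).

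The remaining members of this arm did not pass either fit. PDIA4, another disulfide isomerase, had a log2 fold change of 0.14 (95% interval -0.15 to 0.43), and DNAJB11, a J-domain partner of BiP, had 0.14 (-0.09 to 0.37). HYOU1, an HSP110-like chaperone that exchanges the nucleotide of BiP, was at 101 ± 10.6 and 98.1 ± 3.74 RPKM, a log2 fold change of -0.04 (-0.25 to 0.17), which became 0.22 when centred on its neighbours. SEL1L, the adaptor of the ER ubiquitin ligase, had 0.11 (-0.20 to 0.41). CRELD2 and SDF2L1, folding factors that ER stress induces, were at means between 5.45 and 8.29 RPKM, with log2 fold changes of 0.04 and -0.05. Set beside the promoter letters, the 8 genes with an ERSE or ERSE-II had log2 fold changes from -0.67 in HSPA5 to 0.21 in PDIA6, and 1 of the 8, HSPA5, passed the test on group alone, where 33.8% of all tested genes did. With the block 3 of the 8 passed, HSPA5 and HERPUD1 lower and PDIA6 higher, against 48.3% of all tested genes.

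**Figure D2:**
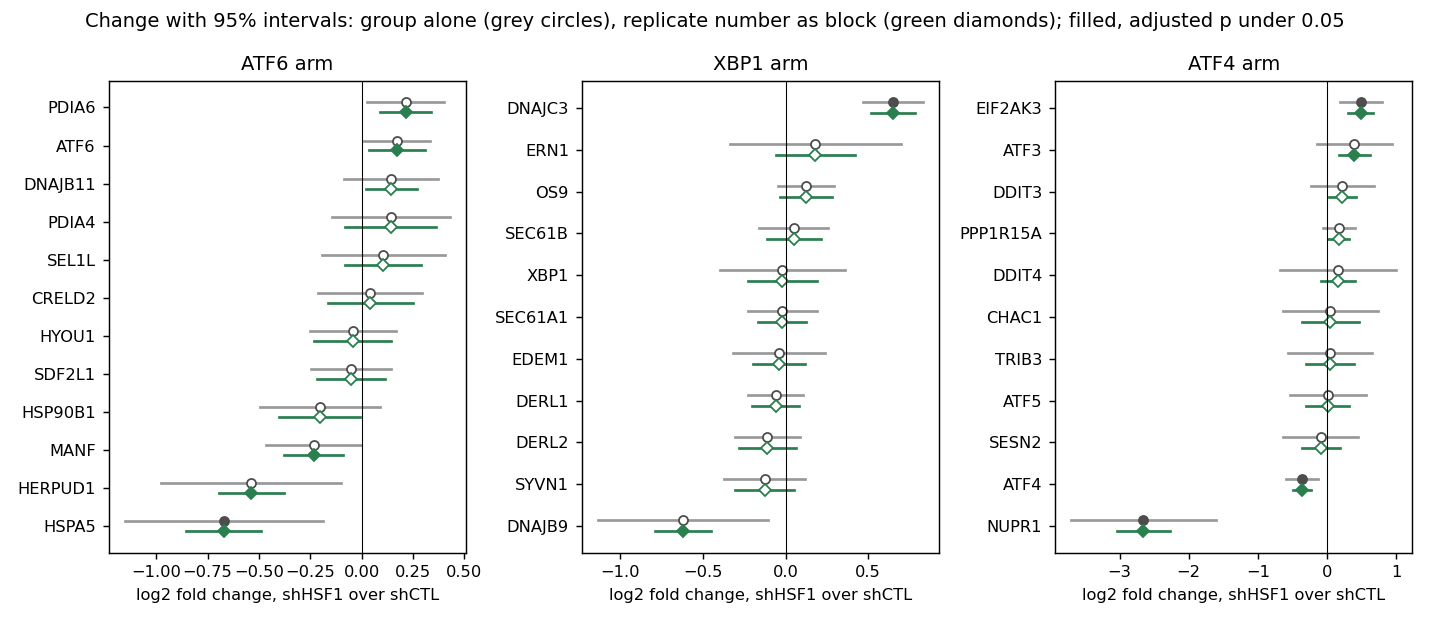
Log2 fold change of shHSF1 over shCTL for the 34 tested genes by arm, with 95% intervals from limma on group alone (grey, circles) and with a block on replicate number (green, diamonds); filled marks have an adjusted p under 0.05, and each panel has its own axis. The block narrows the intervals, and 11 genes are filled in green where 5 are filled in grey.

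In the XBP1 arm the sensor and the factor were not called, and the 2 J-domain co-chaperones lay on opposite sides. ERN1, which encodes the sensor IRE1, was at 1.95, 3.91 and 2.69 RPKM in shCTL libraries 1 to 3 and at 2.65, 3.94 and 3.08 RPKM in shHSF1 libraries 1 to 3. XBP1 was at 35.6, 54.6 and 50.3 RPKM in shCTL libraries 1 to 3 and at 41.8, 52.0 and 43.3 RPKM in shHSF1 libraries 1 to 3. Both overlapped between the groups, with log2 fold changes of 0.18 for ERN1 (95% interval -0.34 to 0.70) and -0.02 for XBP1 (-0.40 to 0.36). The interval of XBP1 spans values on both sides of 0, and the table does not separate its spliced from its unspliced form.

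DNAJC3, which encodes P58IPK, a co-chaperone of BiP first described as an inhibitor of eIF2 kinases (chr13:95677139-95794989, plus strand, 12 exonic blocks), was at 18.2, 20.2 and 19.2 RPKM in shCTL libraries 1 to 3. In shHSF1 libraries 1 to 3 it was at 28.4, 31.1 and 31.8 RPKM. The groups were well apart, and the rise was 1.58-fold with a log2 fold change of 0.65 (SE 0.0780, limma adjusted p = 0.000731). The genes around it were also higher, since among the 40 nearest tested genes on chromosome 13 the median log2 fold change was 0.42. With the shHSF1 values centred on these neighbours the log2 fold change of DNAJC3 was 0.27 (limma adjusted p = 0.0383), and centred on all tested genes within 10 Mb, a choice made after seeing the data, it was 0.09 and not called (adjusted p = 0.435). What moves these neighbours was not tested.

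DNAJB9, which encodes ERdj4, a J-domain protein that binds unfolded proteins and a classical XBP1 target, was at 8.71, 14.3 and 14.5 RPKM in shCTL libraries 1 to 3. In shHSF1 libraries 1 to 3 it was at 5.95, 8.68 and 8.97 RPKM. The groups overlapped narrowly, through shCTL 1, and every pair had the lower value in shHSF1. The means of 12.5 ± 3.29 and 7.87 ± 1.67 RPKM (SD, n = 3) gave a log2 fold change of -0.62, with a limma adjusted p of 0.0644 on group alone, 0.00069 when blocking on replicate number and 0.0109 without shCTL 1.

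Of the 7 tested genes for degradation or translocation in this arm, 0 passed limma on group alone, with the block or with voom, and 0 had an unadjusted p under 0.05. Among all tested genes, 33.8% passed limma on group alone and 48.3% with the block. The largest log2 fold changes among the 7 were -0.13 for SYVN1, the ubiquitin ligase HRD1 (95% interval -0.37 to 0.12), and 0.13 for OS9, a lectin that delivers misfolded glycoproteins (-0.04 to 0.29). EDEM1, which trims mannose from misfolded glycoproteins, was at 26.1 ± 4.00 and 25.3 ± 2.27 RPKM (SD, n = 3). DERL1 and DERL2, derlins of the export channel, had log2 fold changes of -0.06 and -0.11. SEC61A1 and SEC61B, subunits of the channel through which new proteins enter the ER, were at 111 and 131 RPKM in shCTL and at 109 and 136 RPKM in shHSF1, with overlapping groups. Centred on its 40 neighbouring genes on chromosome 8, which were lower, DERL1 had a log2 fold change of 0.29 (limma adjusted p = 0.0196). It was 0.25 centred on genes within 10 Mb (adjusted p = 0.0310) and 0.04 centred on 20 genes (adjusted p = 0.751).

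In the ATF4 arm the sensor gene was higher and the factor gene lower, and most of the stress targets overlapped between the groups. EIF2AK3, which encodes PERK (chr2:88556740-88627576, minus strand, 18 exonic blocks), was at 5.49, 6.87 and 7.14 RPKM in shCTL libraries 1 to 3 and at 8.11, 10.4 and 9.33 RPKM in shHSF1 libraries 1 to 3. Its groups did not overlap, and it rose 1.43-fold, a log2 fold change of 0.49 (SE 0.130, limma adjusted p = 0.0238). The call was lost without shCTL 1 (0.0571) or shHSF1 2 (0.0891).

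ATF4 (chr22:39520559-39522686, plus strand, 2 exonic blocks), the factor that turns on amino acid supply and stress genes, was at 146, 179 and 172 RPKM in shCTL libraries 1 to 3. In shHSF1 libraries 1 to 3 it was at 120, 140 and 126 RPKM. No library of the groups crossed, though shCTL 1 and shHSF1 2 lay close. It fell 1.29-fold, a log2 fold change of -0.36 (SE 0.0993, limma adjusted p = 0.0259), and the call was lost without shCTL 2 (0.0814), shCTL 3 (0.0961), shHSF1 1 (0.0856) or shHSF1 3 (0.0502). Centred on neighbouring genes, ATF4 had a log2 fold change of -0.29 with 40 genes (limma adjusted p = 0.0610) and of -0.42 with all genes within 10 Mb (adjusted p = 0.0171). ATF4, XBP1 and HSP90B1 have pseudogene copies in GENCODE, so the division of their reads is uncertain.

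NUPR1, a small stress-induced nuclear protein that modulates transcription (chr16:28537341-28539174, minus strand, 3 exonic blocks), had the largest change of the 34 genes. It was at 3.46, 12.9 and 9.76 RPKM in shCTL libraries 1 to 3, from 222, 460 and 327 reads. In shHSF1 libraries 1 to 3 it was at 0.386, 1.33 and 0.839 RPKM, from 15, 47 and 26 reads. Even the lowest shCTL library, number 1, lay above every shHSF1 library. The 10.2-fold fall gave a log2 fold change of -2.66 (SE 0.450, limma adjusted p = 0.00343), which was called with each library left out in turn (up to 0.0150).

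The other 8 genes of this arm, among them classical targets of ATF4 and its partner CHOP, were not called on group alone. DDIT3, which encodes CHOP, a factor tied to death under ER stress, was at 10.0, 15.3 and 13.8 RPKM in shCTL libraries 1 to 3 and at 12.5, 19.6 and 13.96 RPKM in shHSF1 libraries 1 to 3 (limma adjusted p = 0.431, and 0.0625 with the block). ATF3, another stress-induced factor, measured 1.58, 2.77 and 2.15 RPKM in shCTL libraries 1 to 3 and 2.23, 4.18 and 2.71 RPKM in shHSF1 libraries 1 to 3. For both genes the groups overlapped while the shHSF1 library was the higher of each pair, and ATF3 was called higher with the block (adjusted p = 0.0133, against 0.235 on group alone).

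PPP1R15A, which encodes GADD34, the subunit that has eIF2 dephosphorylated, was at 55.0 ± 6.71 and 61.7 ± 3.31 RPKM (SD, n = 3), a log2 fold change of 0.17 (limma adjusted p = 0.234). Centred on neighbouring genes, PPP1R15A had 0.39 with 40 genes (limma adjusted p = 0.0231) and 0.18 with all genes within 10 Mb (adjusted p = 0.222). TRIB3, a pseudokinase that ATF4 and CHOP induce, was at 10.0 ± 3.45 and 10.2 ± 2.71 RPKM. CHAC1, an enzyme that degrades glutathione, was at 3.91, 10.4 and 7.18 RPKM in shCTL libraries 1 to 3 and at 6.27, 8.36 and 6.30 RPKM in shHSF1 libraries 1 to 3, so that the shHSF1 values lay inside the shCTL range. DDIT4 and SESN2, inhibitors of the growth kinase mTORC1, had log2 fold changes of 0.16 (95% interval -0.68 to 1.00) and -0.09 (-0.63 to 0.45). ATF5, a factor related to ATF4, had 0.01 (-0.54 to 0.56). Only 1 of the 11 genes of this arm had an interval within 0.5 of 0 on group alone, PPP1R15A, against 8 with the block.

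**Figure D3:**
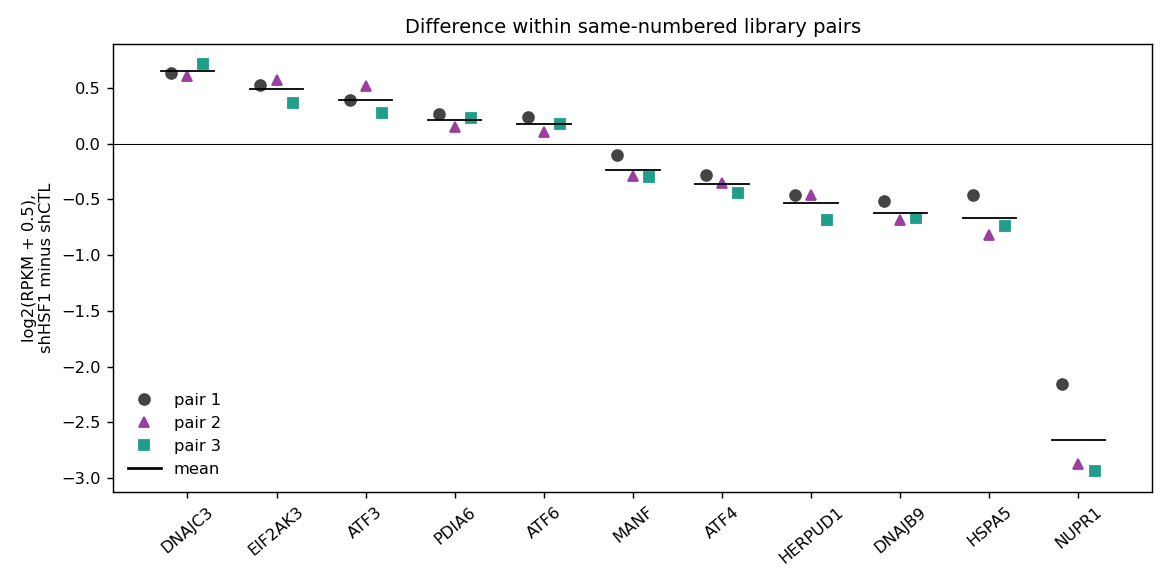
Difference in log2(RPKM + 0.5), shHSF1 minus shCTL, within same-numbered library pairs for the 11 genes called with the replicate number as a block; marks are pairs 1, 2 and 3, and bars their mean. All 3 pairs of each gene lie on the same side of 0, from -2.94 in pair 3 of NUPR1 to 0.71 in pair 3 of DNAJC3.

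Much of the spread within the groups ran along the replicate numbers. Replicate 1 was the lowest library in both groups for 17 of the 34 genes, against 25.0% of all tested genes, and replicate 2 the highest in both groups for 16 (47.1% of the 34, against 20.5%). Both held for 11 genes (32.4%, against 6.91%), and 6 of these are in the ATF4 arm, namely ATF4, ATF3, DDIT3, NUPR1, CHAC1 and DDIT4. The other 5 are HSPA5, HERPUD1, SEL1L, ERN1 and XBP1. NUPR1 had the widest range of them, 3.73-fold within shCTL and 3.45-fold within shHSF1. DDIT4 shows the pattern with little difference between the groups, at 36.5, 97.1 and 68.9 RPKM in shCTL libraries 1 to 3 and at 50.8, 100 and 67.0 RPKM in shHSF1 libraries 1 to 3. It varied 2.66-fold within shCTL and 1.97-fold within shHSF1, while its group means of 67.5 and 72.6 RPKM differed by less than either spread. CRELD2, DERL2, ATF5 and PPP1R15A differed from this in shCTL, where replicate 2 was the lowest library. The column names put cl before each replicate number, and their running S numbers place the control and the HSF1 hairpin of the same number next to each other, but what cl and the S numbers stand for is not stated, and the state of the cells in each pair was not tested.

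**Figure D4:**
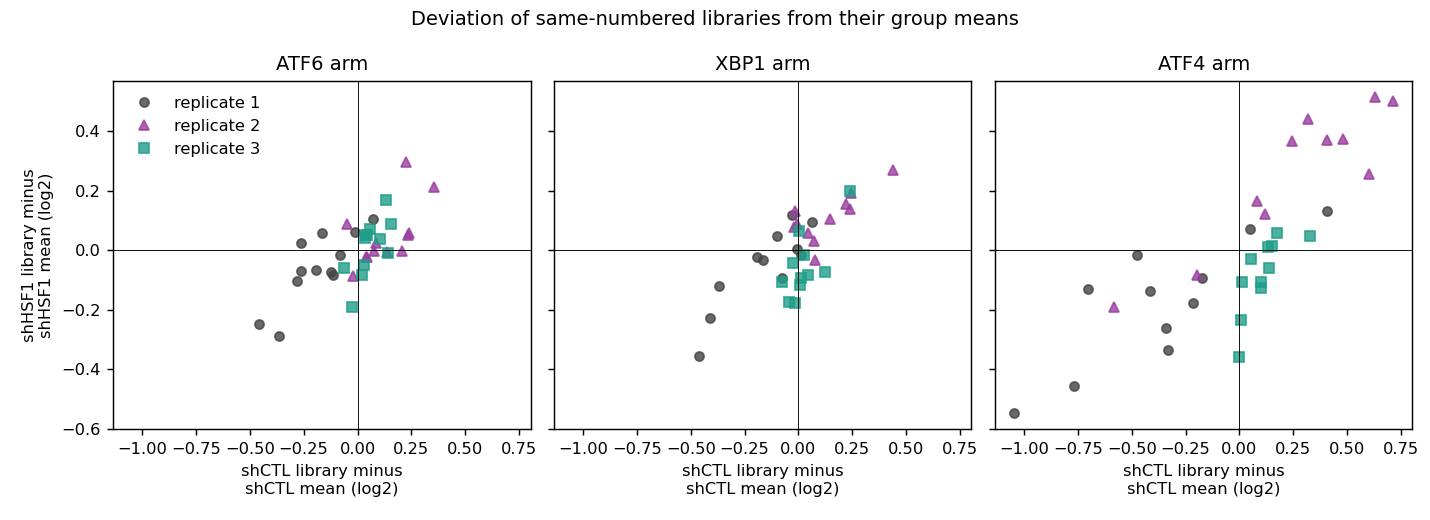
Deviation of each library from its group mean in log2(RPKM + 0.5) for the 34 tested genes by arm, shCTL on the horizontal axis and the same-numbered shHSF1 library on the vertical axis; each gene gives 3 points, for replicates 1, 2 and 3. Most replicate 1 points lie at the lower left and most replicate 2 points at the upper right, and the widest spread is in the ATF4 arm.

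Other genes of the same pathways, in 8 lists that hold none of the 35, were called about as often as genes at large. Of 148 genes tested from these lists, 20 rose and 30 fell, which is 33.8%, the same as the share among all tested genes. With the block 33 of the 148 were higher and 42 lower. The block called 48.3% of all tested genes, 26.2% higher and 22.1% lower. Among 20 other ER folding enzymes and lectins, 3 rose and 3 fell (30.0%, against 33.8% of all tested genes). PPIB, a secretory prolyl isomerase, rose from 230 ± 17.2 to 387 ± 8.44 RPKM (SD, n = 3), ERO1A, the oxidase that recharges disulfide isomerases, from 51.9 ± 3.30 to 83.5 ± 14.4 RPKM, and FKBP14, another prolyl isomerase, from 4.36 to 7.03 RPKM. CANX, which encodes the lectin chaperone calnexin, fell from 395 ± 25.3 to 278 ± 17.7 RPKM, DNAJC10, a reductase, from 46.5 to 33.4 RPKM, and UGGT1, which marks misfolded glycoproteins, from 24.4 to 18.3 RPKM. The calls of CANX, DNAJC10 and UGGT1 were lost when shHSF1 values were centred on neighbouring genes (limma adjusted p of 0.128, 0.723 and 0.689). Over the 40 genes named from the lists, 26 were called with each library left out in turn, and 14 lost the call without at least 1 library (CEBPG, CREB3L1, DNAJC10, EIF2B1, EIF2B2, EIF2S1, GADD45A, KDELR3, MAN1B1, SEC24D, SEC61G, SLC7A1, UBE2J1 and VEGFA). Centring on 40 neighbouring genes ended 10 of the 40 calls, and the log2 fold changes moved by unequal amounts. DNAJC10, UGGT1, OSTC, SEC24D, SEC31A and FAF2 came to values from -0.07 to 0.05, and CANX went from -0.51 to -0.20, EIF2B2 from 0.29 to 0.17 and EIF2S1 from 0.26 to 0.12. SEC61G stayed nearly as low, at -0.53 against -0.56 (limma adjusted p = 0.0565).

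Of 15 genes of ER-to-Golgi transport, 7 fell and 0 rose with limma (9 lower and 0 higher at an unadjusted p under 0.05, and 6 and 0 called with voom), where 16.1% of all tested genes fell and 17.7% rose. The block called 9 lower and 2 higher, against 22.1% and 26.2% of all tested genes. SEC24D and SEC31A, coat proteins of the vesicles that leave the ER, fell from 33.0 to 23.0 RPKM and from 68.2 ± 1.33 to 49.7 ± 2.02 RPKM (SD, n = 3), and KDELR3, which retrieves ER proteins, fell from 9.29 to 6.39 RPKM. SEC24D and SEC31A lie on chromosome 4, where the 40 nearest genes of each had medians of -0.43 and -0.37 on the log2 scale, and neither was called after centring on them (limma adjusted p of 0.914 and 0.696). KDELR3 was still called after centring (limma adjusted p = 0.0212). Of 24 genes for translocation and glycosylation, 5 rose and 5 fell (41.7%, against 33.8% of all tested genes). The rises were led by SEC11A (36.4 to 70.6 RPKM), RPN2 (118 to 169 RPKM) and SRPRA (60.2 to 82.7 RPKM). The falls were led by SEC61G (180 to 124 RPKM), SSR3 (118 to 82.6 RPKM) and OSTC (92.2 to 66.8 RPKM). SEC61G encodes a small subunit of the same channel as SEC61A1 and SEC61B. Of 19 other degradation genes, 4 rose and 3 fell (36.8%, against the same 33.8%). They were led upward by SELENOS (17.8 to 33.3 RPKM) and downward by RNF139 (10.8 to 6.04 RPKM). Of 10 genes around the sensors, 1 rose and 2 fell (30.0%, against the same 33.8%). CREB3L2, a factor related to ATF6, rose from 22.3 to 35.02 RPKM. CREB3L1, another such factor, fell from 24.4 to 13.1 RPKM, and WFS1, the wolframin of the ER membrane, from 28.1 to 15.0 RPKM.

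On the side of ATF4, 2 of 30 genes for amino acid supply and tRNA charging rose and 4 fell. Together these calls were a smaller share of the list than the 33.8% called among all tested genes. ALDH1L2, a mitochondrial folate enzyme, fell from 4.20 ± 2.35 to 0.363 ± 0.193 RPKM (SD, n = 3), PSPH, of serine synthesis, from 28.2 to 15.5 RPKM, and SLC38A2, an amino acid carrier, from 128 ± 21.0 to 75.9 ± 10.9 RPKM. SLC7A5, the LAT1 carrier, rose from 65.8 to 110 RPKM and SLC7A1 from 50.1 to 61.6 RPKM. Of 18 stress effectors and partners of ATF4, 3 rose and 3 fell (33.3%, against 33.8% of all tested genes). VEGFA, an angiogenic factor, rose from 24.6 to 42.8 RPKM, and CEBPG and GADD45A were also higher. JDP2, a repressor related to ATF3, fell from 7.63 to 2.85 RPKM. TNFRSF10B, a death receptor that CHOP induces, fell from 51.3 to 28.4 RPKM, and TXNIP from 91.7 to 52.9 RPKM. Of 12 genes around eIF2, 2 rose, EIF2B2 and EIF2S1, and 3 fell (41.7%, against 33.8% of all tested genes). PPP1R15B, the constitutive counterpart of PPP1R15A, fell from 30.3 ± 1.30 to 17.5 ± 1.18 RPKM (SD, n = 3, limma adjusted p = 0.000318), EIF2AK4, which encodes the amino acid sensor kinase GCN2, from 39.0 to 28.7 RPKM, and EIF2B1 from 50.4 to 42.9 RPKM.

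**Figure D5:**
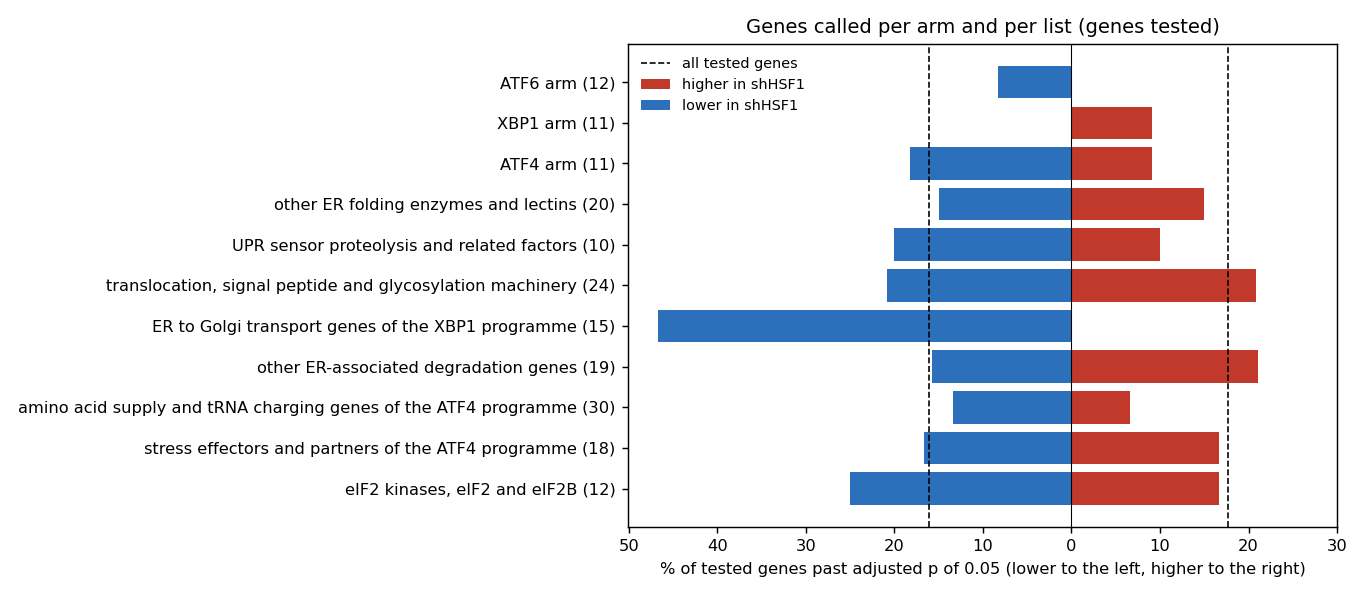
Percentage of tested genes called higher (red, to the right) and lower (blue, to the left) in shHSF1 in each arm and in each of the 8 lists of other pathway genes, with the number tested in brackets; dashed lines mark the shares among all tested genes, 17.7% higher and 16.1% lower. The ER-to-Golgi list, with 7 of 15 lower, reaches farthest.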

How the data were processed

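The authors deposited RPKM values, made with STAR and featureCounts on hg38 per the submitters' processing notes. Their versions, the annotation and the strand setting were not given in the sources used. Reads of overlapping genes cannot be told apart by strand. The largest exon overlaps of the genes described were those of PDIA6 with ATP6V1C2 (29.7% of its length; ATP6V1C2 was at 0.105 RPKM in shCTL) and EIF2AK3 with a non-coding locus (16.2%). Smaller overlaps were with expressed genes. DDIT3 shared 5.77% of its length with MARS (61.3 RPKM in shCTL and 57.9 in shHSF1). SYVN1 shared 2.98% with MRPL49 (40.9 and 41.0 RPKM), and ATF5 2.88% with NUP62 (23.1 and 29.1 RPKM). DNAJB9 with THAP5 and SEC61A1 with RUVBL1 were further cases. How far such reads alter the levels was not tested. Gene lengths in the deposited table are the sums of exon lengths. Control columns named shScr were taken as shCTL, matched by replicate number.

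A gene entered the test if 3 or more libraries had 0.5 RPKM or more of it, and limma 3.58.1 (R 4.3.3) was run on log2(RPKM + 0.5), with a linear model on group, a mean-variance trend, two-sided, Benjamini-Hochberg adjusted over all 12433 genes. Deviations from group means of same-numbered libraries correlated at 0.468, 0.307 and 0.451, each above the limit of 0.1, so numbers were taken to pair libraries, from the data, since the column names (cl before each number, same-numbered hairpins next to each other in the running S numbers) do not say what a number marks. Reads were recovered from the steps of the values (100% whole within 0.01) for depth and voom. In simulated data for this comparison (12377 genes tested), 99% of changes of 1 on the log2 scale and 48% of changes of 0.5 were recovered. The simulated reads had the same dispersion for every gene, no shared replicate effect and 100 changed genes of each size. These shares therefore need not hold for genes that vary more between libraries, such as HSPA5 and DDIT4. Alternatives were the block, each library left out, other filters, pseudocounts and scalings, no trend, voom, and centring on neighbouring genes. Folds are ratios of group mean RPKM. Exonic blocks are merged exons. Figures used matplotlib 3.10.9. Of the pathway lists, up to 3 genes per direction with the largest called changes and no overlap of groups are named. The genes, arms and lists were chosen with earlier results of these data known.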

Additional observations from a re-analysis of the deposited data

How the results depend on the processing

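With the replicate number as a block, 5 of the 34 genes were called higher and 6 lower, against 2 and 3 on group alone, and 3257 and 2750 of all tested genes, against 2195 and 2006; the block ended none of the 5 calls among the 34 and changed no others than those given. Leaving out 1 library gave 1 to 2 higher and 1 to 7 lower among the 34 (7 without shCTL 1), and 1250 to 2213 higher and 1211 to 1937 lower among all genes. With no filter on low values, 1 of the 34 was higher and 1 lower, where HSPA5, EIF2AK3 and ATF4 lost their calls (limma adjusted p of 0.106, 0.0526 and 0.0568). Centred on 40 neighbouring genes, 5 were higher, and on 20, an alternative chosen after seeing the data like that of 10 Mb, 4 were. With either number, NUPR1 and HSPA5 were still called lower, and ATF4 was not (limma adjusted p of 0.0610 with 40 and 0.0604 with 20). The shares of all genes called without the filter or after centring are not given here. HSPA5 lost its call with quantile normalization (limma adjusted p = 0.0676) and without the mean-variance trend (0.0501). The cause was not tested.

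Of genes without a call, 14 changed the sign of the log2 fold change somewhere. Centred on 40 genes, 20 genes and genes within 10 Mb, HYOU1 had 0.223, 0.257 and 0.268, CRELD2 had -0.0899, -0.121 and -0.0162, DERL1 had 0.288, 0.0354 and 0.255. Centred on 20 genes, EDEM1 had 0.0595, TRIB3 -0.018 and ATF5 -0.00946, and within 10 Mb CHAC1 had -0.0466. ATF5 had -0.0115 with median scaling, -0.00252 with quantile normalization and -0.0304 with voom. Leaving out 1 library gave ranges of -0.124 to 0.0261 for HYOU1, -0.00858 to 0.139 for CRELD2, -0.0338 to 0.223 for SEL1L, -0.0269 to 0.398 for ERN1, -0.203 to 0.102 for XBP1, -0.122 to 0.0781 for EDEM1, -0.0677 to 0.067 for SEC61A1, -0.0103 to 0.137 for SEC61B, -0.281 to 0.213 for ATF5, -0.196 to 0.282 for TRIB3, -0.304 to 0.349 for CHAC1, -0.300 to 0.113 for SESN2 and -0.226 to 0.475 for DDIT4.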
